A study of Mus musculus with 15 samples.

Results

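The genes described here are 8 transcription factors that pattern the mesenchyme of the stomach, namely Barx1, Nkx2-5, Nkx3-2, Foxf2, Foxl1, Six2, Tcf21 and Gata3. They were chosen by symbol from the 44788 gene symbols in the files, with earlier results of these data known. Each had 1 entry in the gene tables of all 15 libraries. RNA of whole stomachs of C57BL/6 mice was sequenced with 1 library per time point. The fetal group had 7 libraries (1 each day from E12.5 to E18.5, where E is the embryonic day), the early postnatal group 5 (day 1, 3 and 5 after birth, written D1, D3 and D5, and week 1 and 2, written W1 and W2) and the late postnatal group 3 (W3, W6 and W8). No group carried an edited allele or a treatment. By the reporting form of the study, stomachs of several embryos were combined per replicate up to E17.5 and a single stomach was used at later ages, and sex was not distinguished up to W2, after which mice were male. The form does not say whether this pooling held for the RNA libraries, and since the late postnatal group was male, sex and stage cannot be told apart between the postnatal groups.

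The stomach wall arises from an endodermal epithelium and a surrounding mesenchyme, and transcription factors of the mesenchyme decide with the epithelium where forestomach, glandular stomach and pylorus form. Barx1 is the homeobox factor of the stomach mesenchyme and induces the secreted Wnt antagonists Sfrp1 and Sfrp2, which lower Wnt signaling in the epithelium above. Nkx2-5, Nkx3-2 (also called Bapx1), Six2 and Gata3 mark or shape the posterior stomach and the pyloric sphincter under BMP signaling. Foxf2 and Foxl1 are forkhead factors that respond to Hedgehog ligands of the epithelium, and Tcf21 is a basic helix-loop-helix factor of visceral mesoderm.

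In GRCm38 the files place Nkx2-5 on chromosome 17 (26838664 to 26844997), Nkx3-2 on chromosome 5 (41761483 to 41764220), Foxf2 on chromosome 13 (31625816 to 31631406) and Foxl1 on chromosome 8 (121127685 to 121130644). Tcf21 lies on chromosome 10 (22817263 to 22820128), where it overlaps Gm10824, and Gata3 on chromosome 2 (9857078 to 9887669), where it overlaps 9230102O04Rik and 4930412O13Rik. Gm10824 was measured at 0.0732 to 2.98 FPKM, and the other two at no more than 0.396 and 0.326 FPKM.

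The values are FPKM, that is fragments scaled by transcript length and by the number of mapped fragments, so levels of different genes can be compared. The summed FPKM of a library ranged from 745538 to 1344957, and the 10 most abundant genes took 11.2% of it at E14.5 and 53.2% at W6. The fragments that the authors' confidence bounds imply came to about 10600000 to 17000000 per library. The summed level of 12 general mesenchyme genes (collagens, Vim, Pdgfra and others) was 2197 to 4392 FPKM in the fetal group, 2027 to 4887 in the early postnatal group and 396 to 1826 in the late postnatal group, and all 12 were present in every library. The summed level of 9 gastric gland genes was 388 FPKM at E12.5 and 318900 at W6. In these whole organs, fewer mesenchymal cells and less RNA per mesenchymal cell cannot be told apart.

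All 8 factors were lower at W8 than at E12.5, also when libraries were scaled by their median ratio to the others. The share of all genes that were lower at W8 was not counted. The 10 most abundant genes took 14.9% of the summed FPKM at E12.5 and 52.1% at W8, which lowers the FPKM of other genes. Barx1 and Tcf21 were the first and second most abundant of the 8 in each of the 15 libraries. Barx1 started at 472 FPKM and Tcf21 at 247 FPKM, followed by Six2 at 83.3, Foxf2 at 39.7, Nkx2-5 at 29.3, Nkx3-2 at 11.7, Foxl1 at 9.40 and Gata3 at 3.08 FPKM. The speed of the fetal decline differed widely among them. At E18.5, Nkx2-5 stood at 0.575% of its E12.5 level, Nkx3-2 at 9.63%, Six2 at 16.8%, Barx1 at 31.5%, Tcf21 at 38.4%, Foxl1 at 46.9%, Foxf2 at 49.96% and Gata3 at 68.8%. The posterior factors Nkx2-5, Nkx3-2 and Six2 thus stood lowest relative to their start, while the fourth posterior factor, Gata3, kept the largest share. In the order at E18.5, Nkx3-2 (1.13 FPKM) and Gata3 (2.12 FPKM) had bounds that did not overlap (0.678 to 1.58 and 1.71 to 2.52), whereas at E15.5 those of Nkx2-5 (3.48 FPKM, 2.72 to 4.24) and Nkx3-2 (2.93 FPKM, 2.22 to 3.65) did.

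**Figure D1:**
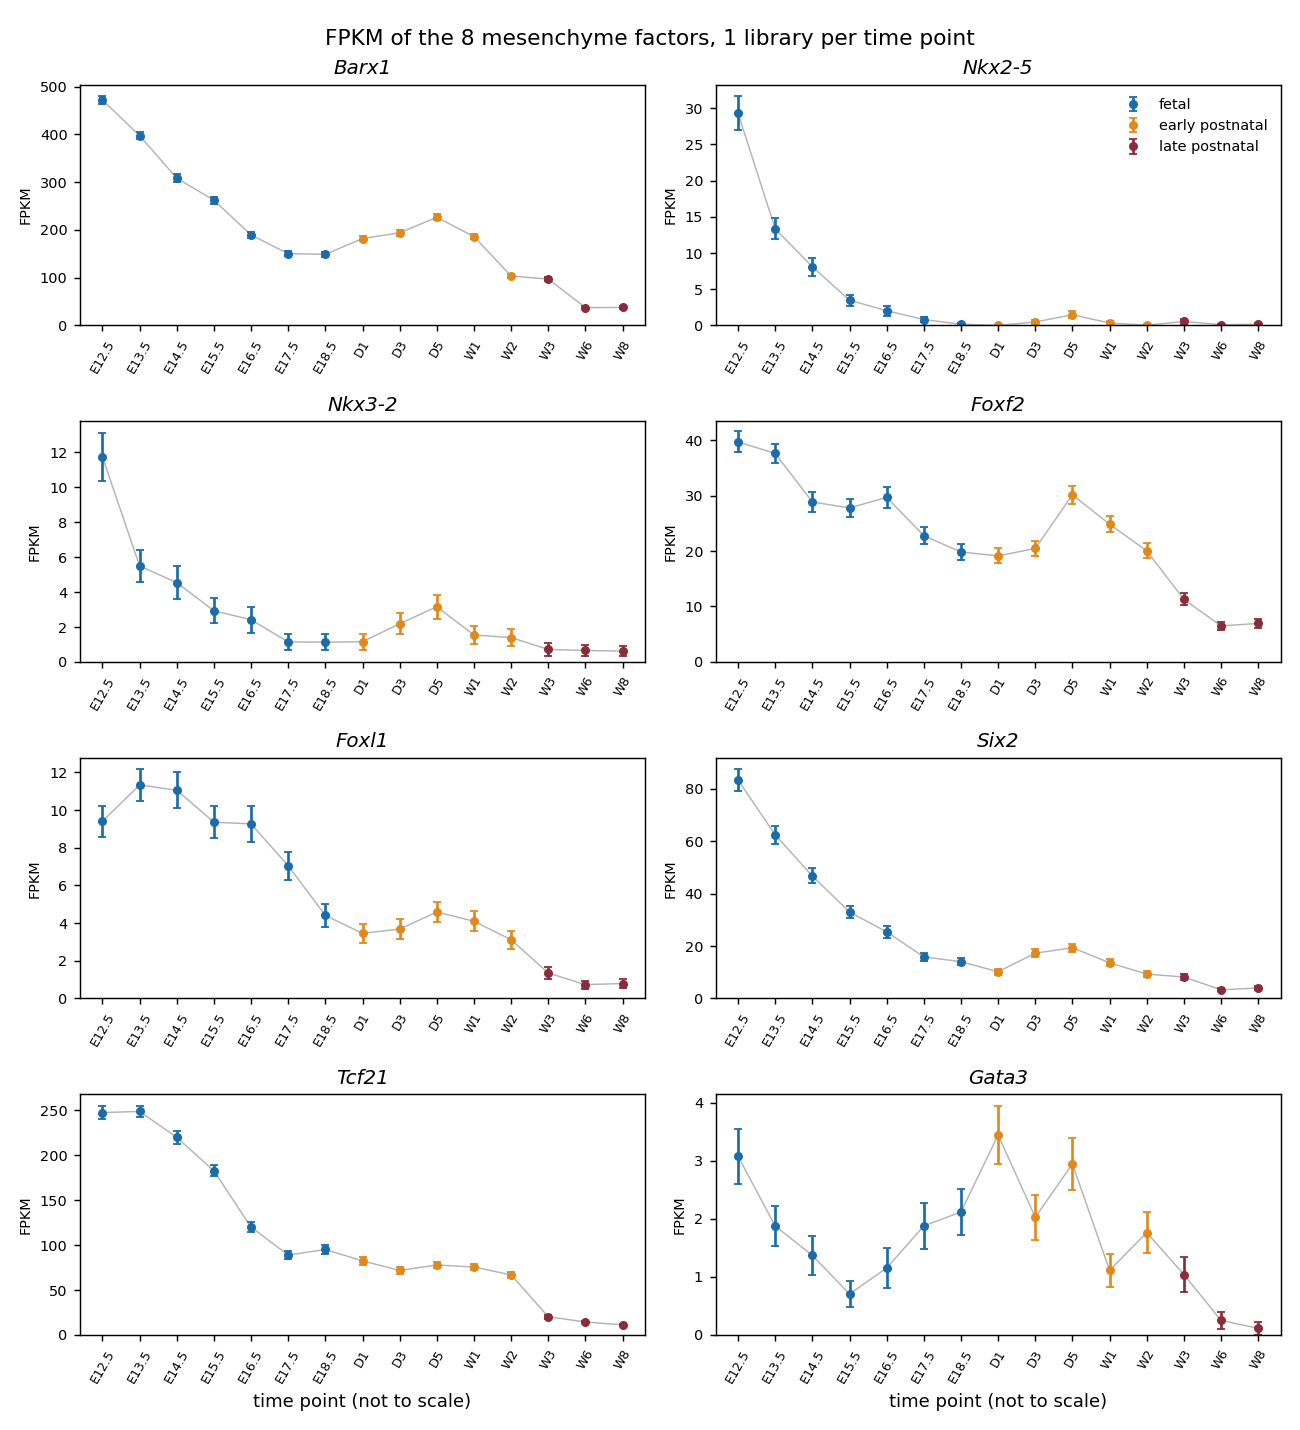
FPKM (linear axis from 0) of each factor at the 15 time points, with 1 library per point, colours for the fetal, early postnatal and late postnatal groups, and bars for the authors' confidence bounds. Barx1 descends from 472 FPKM at E12.5, has a second maximum of 226 FPKM at D5 and ends at 37.6 FPKM at W8, whereas Nkx2-5 is below 1 FPKM from E17.5 apart from D5, and Gata3 has its minimum within the fetal group at E15.5.

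All comparisons were made with limma on log2(FPKM + 1) over the 16902 symbols that reached 1 FPKM in any library, and a change was called at a Benjamini-Hochberg adjusted p under 0.01 over all of them. Time points stood as the samples of a group, so the spread includes change over time and no technical or animal error could be measured. Over fetal age, 6 of the 8 factors fell (Barx1, Nkx2-5, Nkx3-2, Foxf2, Six2 and Tcf21), where 25.0% of all genes tested fell and 14.3% rose. From the fetal to the early postnatal group 2 fell (Foxl1 and Tcf21), where 30.6% of all genes fell and 10.8% rose, so this share was close to the background. From the early to the late postnatal group 5 fell (Barx1, Foxf2, Foxl1, Tcf21 and Gata3), where 28.9% of all genes fell and 2.57% rose. No factor rose in any of the 3 limma comparisons, and none was higher at an unadjusted p under 0.05. The median change of the 8 factors was -0.29 per embryonic day, -0.81 and -1.30 on the log2 scale, and that of all genes tested was -0.03, -0.22 and -0.42. The downward shift of all genes goes with the growing share of the top 10 genes. Scaling each library by the median ratio to the others left 6, 1 and 3 factors called lower (of the early to late postnatal changes, those of Foxf2, Foxl1 and Tcf21). Under that scaling 2535 of the 16902 genes were lower from fetal to early postnatal and 1305 from early to late postnatal.

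**Figure D2:**
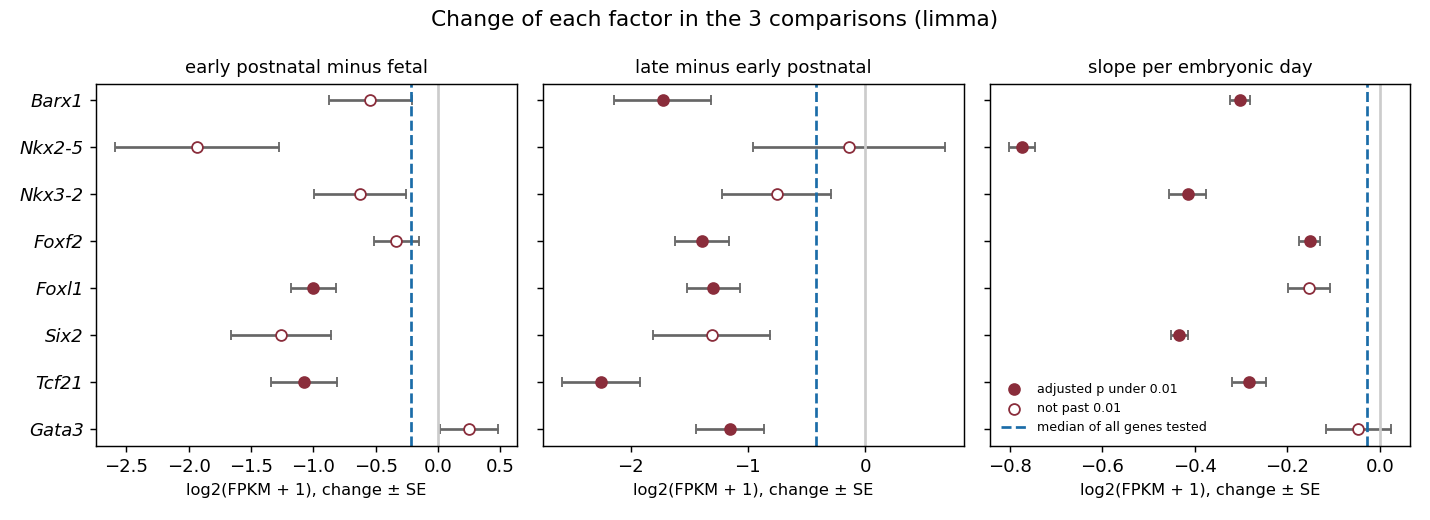
Change in log2(FPKM + 1) with its standard error for each factor, from fetal to early postnatal (left), from early to late postnatal (middle) and per embryonic day (right), with filled points for adjusted p under 0.01 and a dashed line at the median of the 16902 genes tested. The fetal slopes run from -0.77 for Nkx2-5 to -0.05 for Gata3, and all 8 factors lie below 0 in the middle and right panels.

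Barx1, the factor that gives the stomach mesenchyme its identity, fell by 0.30 ± 0.02 (SE) per embryonic day on the log2 scale over the 7 fetal libraries (limma, adjusted p = 0.000208). It was measured at 472, 397, 308, 262, 189, 150 and 149 FPKM from E12.5 to E18.5. Each fetal step was downward, and only the last one lay within the authors' bounds. After birth its values were 182, 194, 226, 186 and 103 FPKM at D1, D3, D5, W1 and W2, and at 97.0, 37.3 and 37.6 FPKM at W3, W6 and W8. The postnatal groups did not overlap, although the bounds of W3 (92.7 to 101 FPKM) and W2 (99.2 to 108 FPKM) did. Between the fetal and the early postnatal group Barx1 changed by -0.54 ± 0.33 (adjusted p = 0.172 in limma), with overlapping groups. Between the early and the late postnatal group it fell by 1.73 ± 0.41 (adjusted p = 0.00415), and this call was lost under median-ratio scaling (-1.14, adjusted p = 0.0252). An exact two-sided permutation test of the latter gave p = 0.0357, the smallest that 5 against 3 libraries allow, and leaving out D3, D5, W6 or W8 in turn ended the limma call.

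Relative to the 12 mesenchyme genes, the course of Barx1 had a different shape after birth. Barx1 stood 2.33 log2 units above their mean at E12.5 and 0.23 above it at E18.5. In the 8 postnatal libraries it stood between 0.59 and 1.02 above it, with 0.88 at D1, 0.82 at D5 and 1.02 at W8. The fetal fall of Barx1 against the mean of these genes (-0.35 per day, limma adjusted p = 0.000179) was thus at least as large as in FPKM. The 12 genes did not move together over fetal age, where 2 fell and 3 rose in limma. Pdgfra (-0.38 ± 0.04 per day) and Pdgfrb (-0.28 ± 0.03) fell about as steeply as Barx1. Col1a1 (0.21 ± 0.04), Col1a2 (0.17 ± 0.03) and Dcn (0.27 ± 0.06) rose, so the fall against their mean does not stand for each of them. The fall from the early to the late postnatal group was not seen against them (0.07, limma adjusted p = 0.866). Of the 12 genes 11 themselves fell between these groups in limma. The median change of all genes against their mean was 1.37, above that of Barx1.

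**Figure D3:**
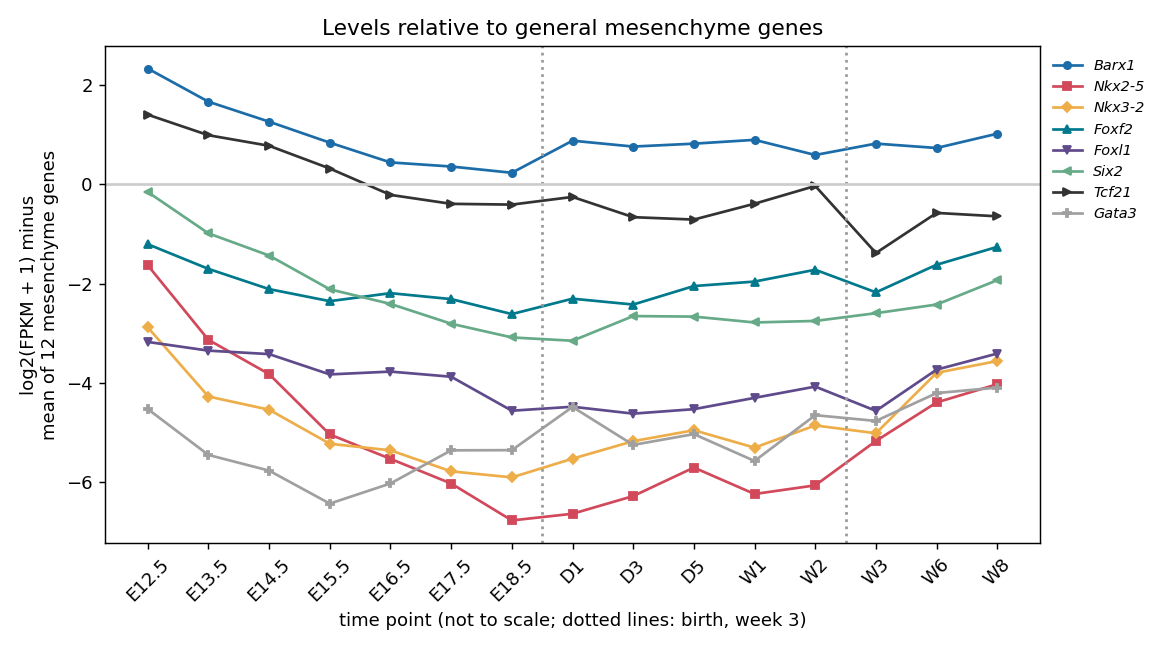
log2(FPKM + 1) of each factor minus the mean of 12 general mesenchyme genes at the 15 time points, with dotted lines at birth and before W3. Barx1 descends from 2.33 at E12.5 to 0.23 at E18.5 and lies between 0.59 and 1.02 after birth, and Nkx2-5 descends from -1.63 to -6.77 before birth and stands at -4.03 at W8.

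The Barx1 gene lies on chromosome 13 at 48663036 to 48666507 (GRCm38, plus strand), and an uncharacterized RefSeq unit, LOC102640574, ends 248 bases before its start (chromosome 13, 48652761 to 48662787). The 250 bases before the Barx1 start are printed because this neighbor ends at their first bases. RefSeq windows of this kind were found for 7 of the 8 factors, and Foxl1 was the factor without one. The RefSeq starts used for Nkx2-5 and Gata3 lie inside the spans that the files give these genes. Capitals mark the GC box GGGCGG on either strand, and some of these matches overlap each other.
Barx1, chr13:48662786-48663035, plus strand: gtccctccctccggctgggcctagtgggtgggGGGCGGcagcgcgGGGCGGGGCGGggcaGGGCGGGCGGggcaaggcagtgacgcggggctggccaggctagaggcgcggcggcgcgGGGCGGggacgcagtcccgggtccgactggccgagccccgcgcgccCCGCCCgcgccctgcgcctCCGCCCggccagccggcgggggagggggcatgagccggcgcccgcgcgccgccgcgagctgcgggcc
The window held 8 GC boxes and 40 CpG dinucleotides at 85.6% G and C, where the median window of 32851 in the table held 6 CpG at 52.4%. Of the 7 windows of the factors, 5 held a GC box (Barx1, Nkx3-2, Foxf2, Six2 and Gata3), against 32.7% of all windows, and none held the TATA box TATAAA, against 12.4%. LOC102640574 was measured at 63.6 FPKM at E12.5, 23.5 at E18.5, 28.8 at D5, 4.56 at W6 and 7.18 at W8. Barx1 was 5.24 (W8) to 8.18 (W6) times as abundant as this unit, with a median ratio of 6.97 over the 15 libraries. Whether fragments were counted by strand is not stated in the sources used here, so reads of neighboring units may be shared.

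The secreted Wnt antagonists, of which Sfrp1 and Sfrp2 are induced by Barx1, did not share 1 fetal course. Of 9 fixed genes, 8 were tested. Over fetal age 2 of the 8 fell and 1 rose, where 25.0% of all genes fell and 14.3% rose, so these shares were close to the background. Sfrp5 (-0.57 ± 0.07 per day, limma adjusted p = 0.00104) and Sfrp1 (-0.24 ± 0.03, adjusted p = 0.00147) fell, and Dkk3 rose (0.23 ± 0.04, adjusted p = 0.00248). Sfrp1 declined from 123 FPKM at E12.5 to 54.9 at E18.5, close to the slope of Barx1. Sfrp2 was at 68.7 FPKM at E12.5 and 68.8 at E18.5, and its slope of -0.06 ± 0.04 did not pass the test (adjusted p = 0.243). From the early to the late postnatal group 4 of 8 fell, where 28.9% of all genes did. Sfrp2 (-3.60 ± 0.43, limma adjusted p = 0.000121) and Sfrp1 (-1.67 ± 0.31, adjusted p = 0.00104) changed most. Under median-ratio scaling 3 of 8 fell, where 1305 of the 16902 genes did. Against the 12 mesenchyme genes 1 of 8 fell and 2 rose, where 30 of the 16902 genes fell and 13015 rose. Against them Sfrp2 changed by -1.80 (limma adjusted p = 7.11e-05) and Sfrp1 by 0.12 (limma adjusted p = 0.746). Sfrp2 ended at 1.47 FPKM and Sfrp1 at 13.1 FPKM at W8. Across birth 0 of 8 were called in limma, where 30.6% of all genes fell and 10.8% rose. Under median-ratio scaling 2 of 8 were higher, as were 2875 of the 16902 genes.

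Nkx2-5, a homeobox factor of the heart, the spleen primordium and the pyloric mesenchyme, had the steepest decline of the 8. Its values were 29.3, 13.3, 8.11, 3.48, 2.04, 0.810 and 0.169 FPKM from E12.5 to E18.5, each value below the one before. The slope was -0.77 ± 0.03 per embryonic day (limma, adjusted p = 0.000143), and it kept its call in all 13 alternative settings tried. At D1 the gene was listed at 0, and at D3, D5, W1 and W2 it was measured at 0.482, 1.47, 0.332 and 0.0371 FPKM. At W3, W6 and W8 it was measured at 0.543, 0.0968 and 0.169 FPKM. Only D5 exceeded 1 FPKM after E16.5, with bounds of 1.001 to 1.94 that lay above those of D3 and W1. Across birth Nkx2-5 changed by -1.93 ± 0.66 (limma adjusted p = 0.0206, exact permutation p = 0.0253), and without E18.5 the adjusted p was 0.00413. After week 2 it changed by -0.14 ± 0.82 (limma adjusted p = 0.899), at levels near the limit of what was detectable at this depth.

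Nkx3-2, which separates the spleen primordium from the pancreas and marks the antral and pyloric mesenchyme, followed Nkx2-5 with a slower decline. The fetal values were 11.7, 5.50, 4.55, 2.93, 2.42, 1.15 and 1.13 FPKM from E12.5 to E18.5, and the slope was -0.42 ± 0.04 per day (limma adjusted p = 0.000386). After birth it was measured at 1.16, 2.19, 3.16, 1.54 and 1.39 FPKM at D1, D3, D5, W1 and W2, and at 0.718, 0.658 and 0.616 FPKM at W3, W6 and W8. The postnatal groups did not overlap, but the change between them of -0.75 ± 0.46 did not pass the test (adjusted p = 0.178 in limma). Neither did the change from the fetal to the early postnatal group (-0.62 ± 0.37, limma adjusted p = 0.158).

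A marker of the spleen primordium moved with both genes. Tlx1, a homeobox gene needed for the spleen, was at 13.53 FPKM at E12.5, 4.04 at E13.5 and between 0.0652 and 0.966 FPKM from E14.5 to E18.5, and it fell over fetal age (-0.56 ± 0.11 per day, limma adjusted p = 0.00451). From E14.5 to E18.5, Tlx1 stood at 5.97%, 7.14%, 5.49%, 0.973% and 0.482% of its E12.5 level. Nkx2-5 stood at 27.7%, 11.9%, 6.94%, 2.76% and 0.575% of its own, and Nkx3-2 at 38.7%, 25.0%, 20.6%, 9.75% and 9.63%. The part of the spleen primordium in the decline of Nkx2-5 and Nkx3-2 was not tested. Of 5 genes of heart muscle, where Nkx2-5 is also used, Myh6 was at most 0.111 FPKM in any library. The summed level was 9.17 FPKM at E12.5, 94.6 at E18.5 and 262 at W8, and Tnni3 alone was at 258 FPKM at W8. All 3 tested heart genes, Tnnt2, Tnni3 and Myl7, rose over fetal age. Nppa went from 0.504 FPKM at E12.5 to 0.0942 at E18.5. From E18.5 to W8, Tnnt2 went from 20.9 to 0.641 FPKM and Myl7 from 57.4 to 3.04 FPKM. The part of heart muscle in the level of Nkx2-5 was not tested.

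**Figure D4:**
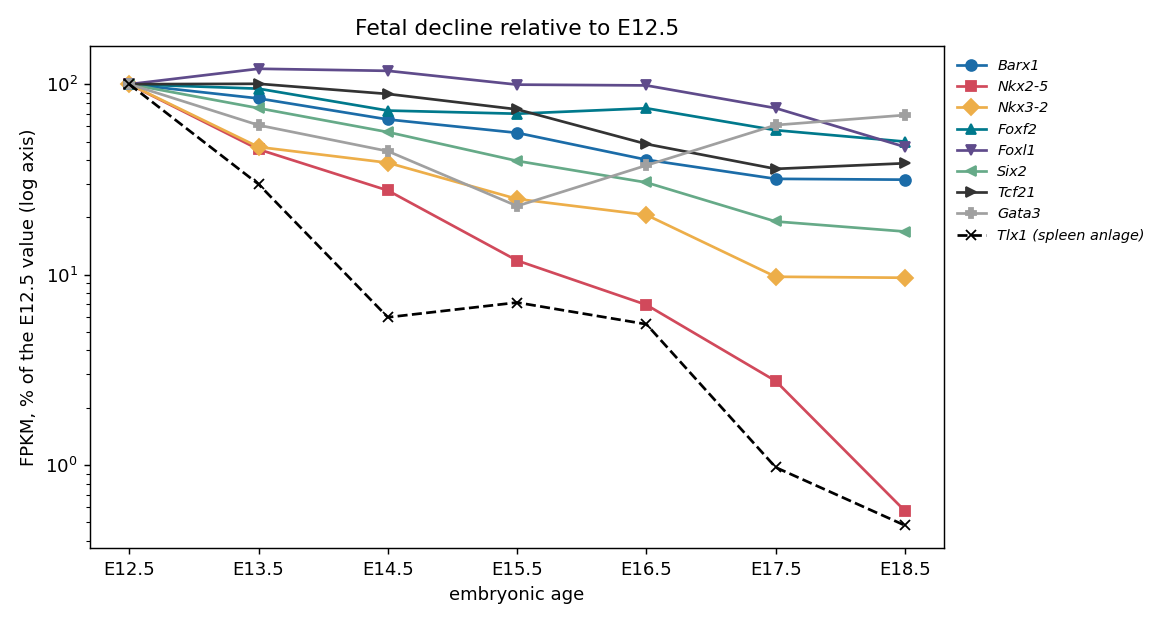
Fetal FPKM of each factor as a percentage of its E12.5 value (log axis) at 7 embryonic ages, 1 library each, with Tlx1 as a dashed line. Nkx2-5 reaches 0.575% and Tlx1 0.482% at E18.5, while Foxf2 and Foxl1 stand at 49.96% and 46.9%.

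Six2, a homeobox factor of the pyloric mesenchyme that is also known from kidney progenitors, fell at every fetal step. It was measured at 83.3, 62.4, 46.7, 33.0, 25.4, 15.8 and 14.0 FPKM from E12.5 to E18.5, and its slope was -0.43 ± 0.02 per embryonic day (limma adjusted p = 0.000143). After birth the values were 10.2, 17.3, 19.3, 13.6 and 9.29 FPKM at D1, D3, D5, W1 and W2, and 8.18, 3.30 and 3.997 FPKM at W3, W6 and W8. The fetal and early postnatal ranges overlapped through D3 and D5, and the change of -1.26 ± 0.40 did not pass the threshold (limma adjusted p = 0.0153, exact permutation p = 0.0202), but passed it without E17.5 or without E18.5. All late values lay below all early postnatal ones, with a change of -1.31 ± 0.50 (limma adjusted p = 0.0403).

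The Six2 gene lies on chromosome 17 at 85684267 to 85688254 (GRCm38, minus strand), and an uncharacterized unit, LOC102640971, starts 101 bases from its start (chromosome 17, 85688356 to 85712949), inside the window printed next. Capitals mark the GC box, the CCAAT box and the GATA motif AGATAA on either strand.
Six2, chr17:85688255-85688504, minus strand: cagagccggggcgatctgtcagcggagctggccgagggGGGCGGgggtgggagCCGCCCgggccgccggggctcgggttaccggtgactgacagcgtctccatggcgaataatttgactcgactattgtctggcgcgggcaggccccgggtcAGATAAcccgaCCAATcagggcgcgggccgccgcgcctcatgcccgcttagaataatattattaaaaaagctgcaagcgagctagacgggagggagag
Tcf21, chr10:22820144-22820393, minus strand: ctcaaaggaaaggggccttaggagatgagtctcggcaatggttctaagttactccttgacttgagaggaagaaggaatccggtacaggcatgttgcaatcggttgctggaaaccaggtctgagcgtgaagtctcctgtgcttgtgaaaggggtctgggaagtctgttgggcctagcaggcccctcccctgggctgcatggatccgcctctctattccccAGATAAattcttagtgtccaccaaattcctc
The Tcf21 window is set beside it as that of an abundant factor with few CpG, 5 at 52.4% G and C against 26 at 64.8% in that of Six2. The CCAAT box was found in 1 of the 7 windows, that of Six2, and in 33.8% of all windows, and AGATAA was found in 2, those of Six2 and Tcf21, and in 9.99% of all. LOC102640971 was measured at 5.54 FPKM at E12.5, 1.23 at E18.5, 2.14 at D5 and 0.4 at W8. Six2 was 9.03 (D5) to 18.96 (W3) times as abundant, with a median ratio of 12.8, so this ratio varied more over the libraries than that of Barx1 to its neighbor.

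**Figure D5:**
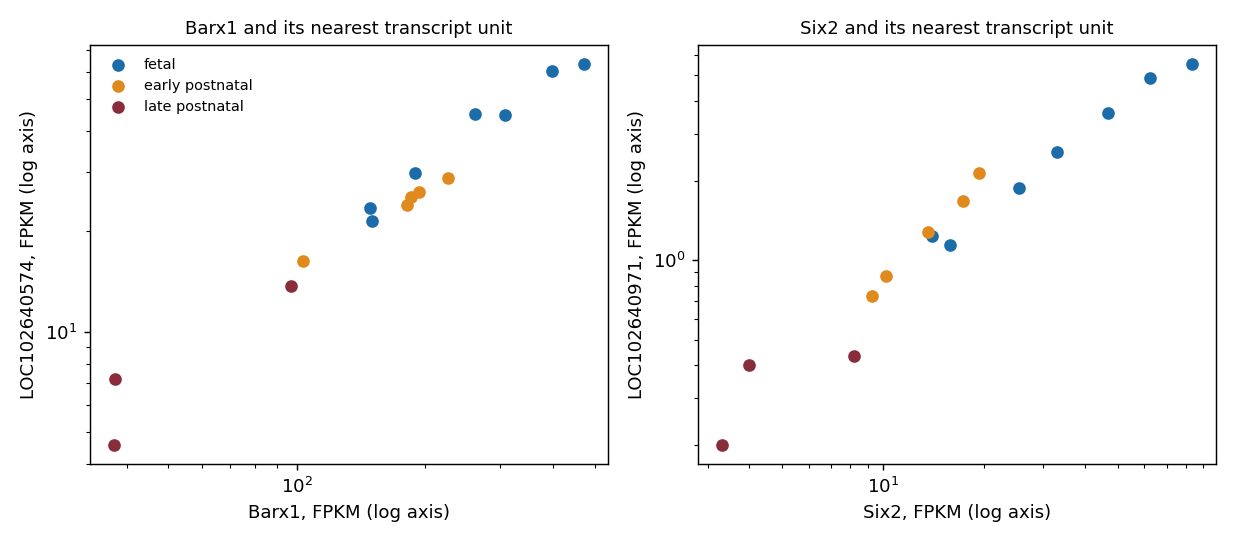
FPKM of the nearest RefSeq unit (y, log axis) against FPKM of Barx1 (left) and Six2 (right, x, log axis) in the 15 libraries, coloured by group. Both pairs run along a rising line, from 4.56 FPKM of LOC102640574 at W6 to 63.6 at E12.5, and from 0.199 FPKM of LOC102640971 at W6 to 5.54 at E12.5.

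Gata3, a zinc finger factor of the pyloric sphincter that is also used by T cells and squamous epithelium, took a course of its own. It was measured at 3.08, 1.87, 1.37, 0.705, 1.15, 1.88 and 2.12 FPKM from E12.5 to E18.5, with a minimum at E15.5, and the slope of -0.05 ± 0.07 per day did not pass the test (limma adjusted p = 0.609). Its highest level, 3.44 FPKM, was at D1, followed by 2.03, 2.94, 1.11 and 1.76 FPKM at D3, D5, W1 and W2. At W3, W6 and W8 it was measured at 1.04, 0.250 and 0.115 FPKM, below all early postnatal values. The change between the postnatal groups was -1.15 ± 0.29 (limma adjusted p = 0.00522), which was not called under median-ratio scaling (-0.98, adjusted p = 0.0149), without the filter on low values (adjusted p = 0.0111), or without D1, D3, D5, W6 or W8. Across birth it changed by 0.25 ± 0.23 (limma adjusted p = 0.364, exact permutation p = 0.336).

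Markers of squamous epithelium were abundant in the perinatal libraries. The summed level of 6 such genes (keratins of basal and suprabasal layers and Trp63) was 46.0 FPKM at E12.5, 2475 at E15.5, 9910 at E17.5, 6553 at E18.5, 8848 at D1, 2391 at D3, 1956 at D5, 1313 at W1, 1325 at W2, 1115 at W3, 515 at W6 and 12.3 at W8. From E17.5 to E18.5 and from D3 to D5 the sum was lower in the later library while Gata3 was higher, but the markers did not move together. From D3 to D5, Krt13 (1180 to 771.5 FPKM) and Krt4 (592 to 319) were lower. Krt5 (272 to 432), Krt14 (88.6 to 161), Krt15 (251 to 259) and Trp63 (7.44 to 14.1) were higher, as was Gata3. From E17.5 to E18.5, Krt14 was higher (79.25 to 118 FPKM) and the other markers of the list were lower. The range of the sum was 46.0 to 9910 FPKM in the fetal, 1313 to 8848 in the early postnatal and 12.3 to 1115 in the late postnatal group. The summed level of 6 T cell genes was 1.18 to 4.48 FPKM in all libraries, and the defining gene Cd3e was at most 0.230 FPKM and listed at 0 in 8 libraries. The part of squamous epithelium in the level of Gata3 was not tested. Over the 15 libraries the correlation of Gata3 with the other 7 factors was 0.27 (Nkx2-5) to 0.69 (Barx1) on the log2 scale, against 0.67 to 0.97 among those 7, a description over libraries that share their order in time.

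Ligands, receptors and antagonists of the BMP pathway, which acts on the pylorus, together with Sox9 and Msx genes made up 13 fixed genes, all of them tested. Over fetal age Bmp2 (0.57 ± 0.04 per day, limma adjusted p = 0.000208) and Sox9 (0.16 ± 0.03, adjusted p = 0.00262) rose and Bmpr1b, a type I receptor, fell (-0.20 ± 0.03, adjusted p = 0.00109). Of all genes 25.0% fell and 14.3% rose. The median slope of the list was -0.02, near the -0.03 of all genes, while 3 of the 4 posterior factors fell. Bmp2 went from 0.888 FPKM at E12.5 to 18.3 at E18.5, and Bmp4 was at 23.7 and 25.8 FPKM. From the fetal to the early postnatal group 4 of 13 fell, a share close to the 30.6% of all genes that did. Bmpr1b (-0.79 ± 0.20, limma adjusted p = 0.00494) and Bmp7 (-0.64 ± 0.14, adjusted p = 0.0016) fell most, and Bmp2 rose (1.64 ± 0.48, adjusted p = 0.0097). Under median-ratio scaling 1 of 13 fell, where 2535 of the 16902 genes did. Between the postnatal groups 5 of 13 fell, where 28.9% of all genes did. The ligand Bmp4 (-1.34 ± 0.23, limma adjusted p = 0.000618) and the antagonist Chrd (-1.31 ± 0.17, adjusted p = 0.000175) fell most. Under median-ratio scaling 3 fell, where 1305 of the 16902 genes did. Against the 12 mesenchyme genes none fell in either of these comparisons in limma. There 1 of 13 rose from the fetal to the early postnatal group, where 1382 of the 16902 genes did. From the early to the late postnatal group 10 of 13 rose, where 13015 of the 16902 genes did. The median change of all genes was then 1.37, so this share was close to the background.

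Foxf2, a Hedgehog-responsive forkhead factor of gut mesenchyme, had the flattest fetal decline among the factors that fell. Fetal values were 39.7, 37.6, 28.9, 27.8, 29.7, 22.8 and 19.8 FPKM from E12.5 to E18.5 (slope -0.15 ± 0.02 per day, limma adjusted p = 0.00158), and the call was lost without E12.5 (adjusted p = 0.0105) or without E18.5 (adjusted p = 0.0115). At D1, D3, D5, W1 and W2 it was measured at 19.1, 20.5, 30.1, 24.8 and 20.04 FPKM, inside or just below the fetal range. At W3, W6 and W8 it was measured at 11.3, 6.501 and 6.95 FPKM, below all earlier libraries. The change from the fetal to the early postnatal group was -0.33 ± 0.18 (limma adjusted p = 0.13), and that from the early to the late postnatal group was -1.39 ± 0.23 (adjusted p = 0.000562), also called under median-ratio scaling (-0.85, adjusted p = 0.0035).

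Foxl1, a marker of the subepithelial telocytes that form a niche of the epithelium, was kept up until E16.5 and was lower from E17.5 on. It was measured at 9.40, 11.3, 11.1, 9.35, 9.26, 7.04 and 4.41 FPKM from E12.5 to E18.5, and the slope of -0.15 ± 0.05 per day did not pass the threshold (limma adjusted p = 0.025). The early postnatal values were 3.45, 3.68, 4.58, 4.10 and 3.12 FPKM at D1, D3, D5, W1 and W2, of which D5 alone exceeded the lowest fetal value. The late values were 1.35, 0.734 and 0.793 FPKM at W3, W6 and W8. Foxl1 fell by 1.001 ± 0.18 from the fetal to the early postnatal group (limma adjusted p = 0.000605, exact permutation p = 0.00505) and by 1.29 ± 0.23 from the early to the late postnatal group (limma adjusted p = 0.000732). Both calls held under median-ratio scaling. They were not held against the 12 mesenchyme genes, where the changes were -0.69 and 0.50 (limma adjusted p = 0.0722 and 0.154). The median changes of all genes there were 0.09 and 1.37.

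Genes of the Hedgehog pathway, which links epithelial ligands to the forkhead factors, were described by 14 fixed genes, of which 13 were tested and Dhh was below 1 FPKM in all libraries. Over fetal age 8 of 13 fell, with the transcription factors Gli2 (-0.28 ± 0.02 per day, limma adjusted p = 0.000158) and Gli3 (-0.25 ± 0.02, adjusted p = 0.000248) first, and the ligand Ihh rose (0.24 ± 0.04, adjusted p = 0.00252). From the fetal to the early postnatal group 10 of 13 fell, led by Gli3 (-1.41 ± 0.26, adjusted p = 0.000613) and the receptor Ptch1 (-1.24 ± 0.20, adjusted p = 0.000367). From the early to the late postnatal group 10 of 13 fell again, led by Gli1 (-2.05 ± 0.31, adjusted p = 0.000392) and the coreceptor Gas1 (-1.87 ± 0.28, adjusted p = 0.000364). Of all genes tested 25.0%, 30.6% and 28.9% fell in these 3 comparisons. Under median-ratio scaling 7, 7 and 9 of 13 fell. There 2535 of the 16902 genes fell across birth and 1305 from the early to the late postnatal group. Against the 12 mesenchyme genes 11, 0 and 0 of 13 fell. In the last of these 3 of 13 were higher, where 13015 of the 16902 genes rose. The ligands did not follow the receptors and Gli genes. Shh was at 25.8 FPKM at E12.5, 14.2 at D1 and 16.7 at W8, and Ihh at 22.7, 36.7 and 23.0 FPKM, while Gli1 went from 33.6 through 9.90 to 2.19 FPKM.

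Tcf21, a factor of visceral mesoderm that is also needed for the spleen, was the factor whose FPKM separated all 3 stages. Tcf21 was measured at 247, 248, 220, 182, 120, 88.8 and 95.0 FPKM from E12.5 to E18.5, at 82.4, 71.7, 77.8, 75.6 and 66.8 FPKM at D1, D3, D5, W1 and W2, and at 20.3, 14.46 and 11.2 FPKM at W3, W6 and W8. The 3 groups did not overlap, and Tcf21 was the 1 factor of 8 whose early postnatal values all lay below all fetal values, as did 20.9% of all genes. Under median-ratio scaling 0 factors and 11.4% of all genes had this pattern, since Tcf21 at E17.5 (77.4) was then below D1 (81.0) and W1 (80.6). The slope over fetal age was -0.28 ± 0.04 per day (limma adjusted p = 0.00096). Tcf21 fell by 1.08 ± 0.26 from the fetal to the early postnatal group (limma adjusted p = 0.00365, exact permutation p = 0.00253, the smallest possible), a call lost without W2 (adjusted p = 0.011) and under median-ratio scaling (adjusted p = 0.0128). It fell by 2.25 ± 0.33 from the early to the late postnatal group (limma adjusted p = 0.000323). This was the largest postnatal change of the 8 and the 1 that kept its direction against the 12 mesenchyme genes, without passing the test there (-0.46, adjusted p = 0.262). Most of it fell between W2 and W3, where Tcf21 went from 66.8 to 20.3 FPKM while Barx1 went from 103 to 97.0 FPKM.

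Other transcription factors of gut mesenchyme declined in the same libraries. Of 15 fixed genes, all tested, 12 fell over fetal age and none rose, where 25.0% of all genes fell and 14.3% rose. The TALE homeobox gene Meis2 (-0.33 ± 0.03 per day, limma adjusted p = 0.000481) and the nuclear receptor Nr2f1 (-0.30 ± 0.02, adjusted p = 0.000158) fell most. The count was 12 under median-ratio scaling and 13 against the mesenchyme genes. From the fetal to the early postnatal group 9 of 15 fell, among them Twist1 (-1.33 ± 0.23, limma adjusted p = 0.000469), where 30.6% of all genes did. Under median-ratio scaling 4 fell, where 2535 of the 16902 genes did. Between the postnatal groups 10 of 15 fell, led by Osr1 (-2.05 ± 0.42, limma adjusted p = 0.00161) and Foxf1 (-1.91 ± 0.35, adjusted p = 0.000977), where 28.9% of all genes did. Under median-ratio scaling 10 fell, where 1305 of the 16902 genes did. Against the mesenchyme genes 0 fell and 2 rose, where 30 of the 16902 genes fell and 13015 rose.

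The closest relatives of the 8 factors were mostly low. Of 9 relatives, 5 reached 1 FPKM and were tested. Foxf1, the paralog of Foxf2, was more abundant than Foxf2, with 137 FPKM at E12.5 and 7.42 at W8, and fell in all 3 comparisons (-0.28 ± 0.02 per day, -1.13 ± 0.28 and -1.91 ± 0.35, limma adjusted p = 0.000213, 0.00392 and 0.000977), of which the fetal to early postnatal call was lost under median-ratio scaling (adjusted p = 0.0103). Barx2, the relative of Barx1, rose over fetal age (0.69 ± 0.08 per day, adjusted p = 0.000842), from 0.372 FPKM at E12.5 to 23.0 at E17.5, peaked at 28.1 FPKM at D1 and was at 0.419 FPKM at W8, where the squamous markers were also near their lowest level. Nkx2-3, the relative of Nkx2-5, was at 10.1 FPKM at E12.5 and 1.94 at W8 and fell from the early to the late postnatal group (-0.81 ± 0.23, adjusted p = 0.00931), not so under median-ratio scaling (adjusted p = 0.104). Nkx2-6 was at most 0.134 FPKM in any library.

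Several patterns were shared by part of the 8 factors. Barx1, Nkx2-5, Nkx3-2, Foxf2 and Six2 were highest of all 15 libraries at E12.5, as were 28.6% of all genes, while Foxl1 and Tcf21 were highest at E13.5. Barx1, Nkx2-5, Nkx3-2 and Six2 fell at each of the 6 fetal steps, which 7.56% of all genes did, and under median-ratio scaling 2 factors (Nkx2-5 and Six2) and 4.98% of all genes did. Of the 8, 6 had their early postnatal maximum at D5 (all but Tcf21 and Gata3), as did 28.7% of all genes. Under median-ratio scaling 5 factors and 19.8% of all genes did. The summed level of the 12 mesenchyme genes was also highest at D5 (4887 FPKM, against 3588 at D1), and its part in the D5 values was not tested. All late postnatal values lay below all early postnatal ones for 7 of the 8, the exception being Nkx2-5, as for 46.5% of all genes. Under median-ratio scaling this held for 3 factors and 17.3% of all genes. By timing, Nkx2-5 and Nkx3-2 were below 50% of their highest level by E13.5, Six2 by E15.5, Barx1 and Tcf21 by E16.5 and Foxl1 by E18.5. Foxf2 was at 49.96% at E18.5 but at 75.9% at D5 and 50.5% at W2, and stayed below that level from W3.

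The genes most like each factor over the 15 libraries, by Pearson correlation of log2(FPKM + 1), were taken without the 8 factors themselves. They are a description, since all libraries share 1 order in time. Barx1 was most like Hoxb2 (r = 0.99), Unc119 and Hand2, of which Hoxb2 went from 40.8 FPKM at E12.5 to 2.90 at W8. Nkx2-5 was most like Slc12a5 (r = 0.98), Col9a1 and LOC102631711, and Nkx3-2 most like Kif26b (r = 0.98), Kcnab1 and Nefm. Foxf2 was most like Tmem8b (r = 0.98), Mycn and Adamts10, and Foxl1 most like Mex3d (r = 0.99), Slc27a3 and Pknox2. Six2 was most like Phldb2 (r = 0.99), Mapk11 and Pex19, and Tcf21 most like Marcks (r = 0.99), Sox4 and Wrb. Gata3 had the weakest nearest gene of the 8, Pla2g4b (r = 0.93), before Spag1 and Aif1l.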

How the data were processed

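Whole stomach RNA was measured in 15 libraries, and groups were set from the ages in the labels, with boundaries at birth and at 3 weeks. The authors deposited FPKM per gene entry with confidence bounds. The methods of the study name HISAT2, StringTie and a GENCODE annotation, and call the tissue liver, whereas the submitters' processing notes name Bowtie 0.12.2, FastQC and GRCm38.p2, the labels say stomach, and the files have the layout of Cufflinks, so the quantification is not settled. FPKM depends on what else is in a library, so very abundant genes lower the values of all others. Entries of a symbol were summed, genes reaching 1 FPKM kept, and a pseudocount of 1 added before log2. Comparisons used limma 3.58.1 in R 4.3.3 with Benjamini-Hochberg adjustment over all genes tested, checked on simulated data, and exact two-sided permutation tests (SciPy 1.17.1). Genes of 0 variance within groups are offset by limma. Named genes were the 8 factors, the 3 genes most correlated with each, and the 2 called genes with the largest change in each direction per pathway list and comparison; Tlx1, Sfrp2, Shh and other members of the fixed lists were named after their values were seen. Some genes of the lists are not reported here. The members and lists were chosen with earlier results of these data known. Alternatives were other scalings, pseudocounts, filters, thresholds and phases and leaving out each library. File starts count from 0 and are printed from 1. The 250 bases before each RefSeq start came from a GRCm38.p6 table.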

Additional observations from a re-analysis of the deposited data

Results flagged for a closer look

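Nkx3-2 at E12.5 stood apart from the rest of the fetal group. Its 11.7 FPKM exceeded the next value, 5.50 FPKM at E13.5, by 0.589 of the whole fetal range, above Dixon's critical value at the 95% level for 7 libraries. Of 16 pairs of a factor and a group, 1 was marked in this way. The usual rate of about 1 in 20 by chance assumes draws without order. It does not apply here, since the libraries follow age and E12.5 is the first value of a falling series. The marker of the spleen primordium, Tlx1, was at 13.53 FPKM in the same library and 4.04 at E13.5, and its part in the value was not tested. Without E12.5, Nkx3-2 still fell over fetal age in limma.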

How the results depend on the processing

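The fetal falls of Barx1, Nkx2-5, Nkx3-2, Six2 and Tcf21 kept their call and direction in all 13 alternatives run on them. The postnatal falls did not. Subtracting the mean of 12 mesenchyme genes left 0 of 8 factors called lower from fetal to early postnatal and 0 from early to late postnatal, and turned the latter change of Barx1 (0.0682), Nkx2-5 (1.65), Nkx3-2 (1.04), Foxf2 (0.406), Foxl1 (0.499), Six2 (0.485) and Gata3 (0.642), none past the threshold. The median change of all genes from early to late postnatal was 1.37 under this subtraction. Median-ratio scaling left 1 and 3 factors. A threshold of 0.05 gave 4 from fetal to early postnatal, the RNA phases of the study 4 and its protein phases 7, where more late fetal libraries sit in the later group. Leaving out 1 library gave 1 (without W2) to 4 (without E18.5) factors from fetal to early postnatal, and 3 (without D3, D5, W6 or W8) to 5 from early to late postnatal. With 1 library left out, the slope of Gata3 was -0.121 to 0.0504 (without E12.5), and the late change of Nkx2-5 -0.288 (without W3) to 0.0698 (without D5). Over all genes, 5170 were lower from fetal to early postnatal (2535 under median-ratio scaling, 241 against the mesenchyme genes) and 1820 higher (2865 at 0.05, 2875 under median-ratio scaling). From early to late postnatal 4877 were lower (7891 at 0.05, 1305 and 30 under the 2 scalings, 1375 without W6 to 5672 without E18.5) and 435 higher (829 at 0.05, 2112 and 13015 under the 2 scalings, 693 with the protein phases, 172 without W6 to 578 without W2). Over fetal age 4228 were lower (2633 to 3718 with 1 library left out) and 2411 higher (1271 against the mesenchyme genes, 1550 to 2173 with 1 library left out). The causes of these differences were not tested. No paired analysis was possible, since each library came from a different age. With 1 library per time point no replicate error exists, and Nkx2-5 after E17.5 and Gata3 at W8 rest on few fragments.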

Other observations

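Libraries differed in tissues that lie next to the gastric mesenchyme. The W8 library nearly lacked markers of the squamous forestomach. Krt5 was at 27.3 FPKM at W6 and 1.26 at W8, Krt14 at 40.8 and 0.366 FPKM, and Trp63 at 0.739 and 0.0511 FPKM, and Barx2 went from 4.47 to 0.419 FPKM between the same libraries. Barx1 was at 37.3 and 37.6 FPKM and Foxf2 at 6.501 and 6.95 FPKM in them.

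The D1 library carried liver transcripts. Alb was at 460 FPKM at D1, 14.6 at E18.5 and 25.8 at D3, and Afp at 186, 8.27 and 22.3 FPKM. The mesothelial factor Wt1 was at 19.5 FPKM at E12.5, 0.359 at E17.5 and 3.63 at D1.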
